A study of Mus musculus with 4 samples.

Results

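The arrays of 4 mouse melanocyte lines were compared here with the genotypes that the article's Methods give: lines 10d and 14d as bcat*, and lines 9v and 13d as WT. This comparison used 4 of the 4 arrays of the series, 1 per line and 2 lines on each side. The sample titles and genotype labels give lines 13d and 14d the other way round, with 13d as bcat* and 14d as WT, while lines 9v and 10d have the same genotype in both sources. Throughout, "bcat* lines" stands for 10d and 14d and "WT lines" for 9v and 13d, as in the article, and the 2 swapped lines are named wherever a value turns on them.

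The bcat* mice are C57BL/6J mice that carry a stable, transcriptionally active mutant of β-catenin restricted to melanocytes and their precursors. All 4 lines are immortalized cultures from the skin of pups aged 3 days. They were grown in Ham's F12 medium with serum and 200 nM TPA, a phorbol ester used to grow melanocytes, up to 80% confluency, and according to the methods fibroblasts had been selected against with G418. By their labels, lines 9v and 10d are male and lines 13d and 14d are female, so that each side holds a male and a female line under either reading of the genotypes. The methods describe the mice as male. Each line is a single culture, so that the spread on each side is the spread between lines, and differences between single lines and differences of genotype cannot be told apart within a pair.

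β-catenin links cadherins to the actin cytoskeleton at cell contacts and is the transcriptional arm of the Wnt pathway. When its degradation fails, it enters the nucleus, binds Tcf/Lef factors and acts on target genes, among which Axin2, Lef1 and Nkd1 act as feedback regulators of the pathway. In melanocytes, β-catenin acts on Mitf, the transcription factor that directs the lineage, and the pathway is known to take part in melanocyte specification, proliferation and pigmentation. Dynlt3 is a light chain of cytoplasmic dynein, the motor that carries melanosomes toward the cell centre.

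The melanocyte identity of the lines could be read directly. Of 14 melanocyte markers, 13 reached an intensity of 32, taken as the detection level, on at least 1 array, and the summed intensity of the markers was 310318 in line 9v, 300018 in 13d, 336092 in 10d and 312154 in 14d. The exception was Ednrb, at 29 on each array. Markers of other cell types were dim: 2 of 10 fibroblast markers, 3 of 7 measured keratinocyte markers, 1 of 7 immune markers and 0 of 4 endothelial markers were detected, and the highest sum of any of these lists on any array was 703, for keratinocyte markers in line 13d. Of 6 measured Schwann cell markers 3 were detected, and S100b, a calcium-binding protein that melanocytes also make, had an intensity of 58 in line 9v, 3836 in 13d, 308 in 10d and 5 in 14d. The sex labels could be checked as well: Xist, transcribed from the inactive X chromosome, had intensities of 4 in lines 9v and 10d, 2124 in 13d and 1768 in 14d, and the Y-linked gene Eif2s3y had 690 in 9v, 1088 in 10d and 13 in both 13d and 14d.

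To show the upstream sequence of genes that are discussed below, the 250 bases before the RefSeq start site (GRCm38.p6, 5′ to 3′ on the gene's strand) were searched on both strands for the Tcf/Lef core CTTTGA and for the sterol regulatory element core CACCCCAC, which do not overlap in any window printed here. Matches are in capitals. Dynlt3 and Tnfrsf19 are shown as the gene at the centre of the study and the separated β-catenin target, Armcx2 as the gene with the widest gap between the sides, and Hmgcs1 as a gene of sterol synthesis.
Dynlt3 (chrX:9662984-9663233, minus strand): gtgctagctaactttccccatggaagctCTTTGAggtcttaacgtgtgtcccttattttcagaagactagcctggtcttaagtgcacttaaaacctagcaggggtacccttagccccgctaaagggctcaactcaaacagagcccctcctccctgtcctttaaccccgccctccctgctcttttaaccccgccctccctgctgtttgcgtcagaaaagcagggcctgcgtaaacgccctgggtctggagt
Tnfrsf19 (chr14:61037988-61038237, minus strand): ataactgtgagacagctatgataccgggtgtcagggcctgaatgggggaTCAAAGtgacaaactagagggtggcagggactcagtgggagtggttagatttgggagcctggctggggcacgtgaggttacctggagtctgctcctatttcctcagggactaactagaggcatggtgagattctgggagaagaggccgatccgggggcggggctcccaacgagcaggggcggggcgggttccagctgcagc
Armcx2 (chrX:134809222-134809471, minus strand): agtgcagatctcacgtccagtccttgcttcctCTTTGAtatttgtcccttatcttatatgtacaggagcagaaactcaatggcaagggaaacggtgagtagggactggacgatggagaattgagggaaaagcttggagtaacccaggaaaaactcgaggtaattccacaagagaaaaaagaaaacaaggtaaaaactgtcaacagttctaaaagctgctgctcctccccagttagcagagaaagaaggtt
Hmgcs1 (chr13:119690101-119690350, plus strand): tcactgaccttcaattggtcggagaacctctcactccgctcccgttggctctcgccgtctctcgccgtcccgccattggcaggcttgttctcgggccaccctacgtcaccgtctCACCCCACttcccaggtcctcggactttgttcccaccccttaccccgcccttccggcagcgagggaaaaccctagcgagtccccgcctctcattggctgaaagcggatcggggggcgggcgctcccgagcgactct

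The Tcf/Lef core lay once in each of the Dynlt3, Tnfrsf19 and Armcx2 windows, and the sterol regulatory element core lay once in that of Hmgcs1. The windows were printed because they hold a match. The sterol regulatory element core was not found in the windows of Idi1, Mvd, Nsdhl and Hsd17b7, the other sterol synthesis genes that were separated. The Tcf/Lef core was not found in those of Axin2 and Efemp1. Only exact copies of the letters were counted, so that variants of either motif were not searched for. Tnfrsf19 has a second RefSeq start, whose window held neither motif. Over all 32851 RefSeq windows of this length, 13.8% held the Tcf/Lef core and 2.58% the sterol regulatory element core. By gene, the Tcf/Lef core was present for 7 of 32 matched genes that were higher in the bcat* lines and 11 of 60 matched genes that were lower, as counted below, or 21.9% and 18.3%, beside 15.8% of all 27025 genes. These letters describe the windows and do not show that a factor binds there.

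Ctnnb1, the gene of β-catenin, was at a similar level in every line. Its brightest probe set had an intensity of 30254 in line 9v, 34368 in 13d, 31799 in 10d and 31844 in 14d, so that both bcat* lines lay between the WT lines. The log2 difference of bcat* over WT lines was -0.02 ± 0.23 (SE, 2 lines against 2), with a 95% interval from -0.67 to 0.64. The probe sets do not tell the transgene from the endogenous gene, so these values do not check the genotype labels.

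On these arrays Dynlt3 did not divide the lines as the article's genotypes do. Its brightest probe set had an intensity of 11518 in line 9v, 4055 in 13d, 4764 in 10d and 11963 in 14d. Lines 10d and 13d were low and lines 9v and 14d high, so that each side held a low and a high line. The other 3 probe sets of Dynlt3 gave the same order of low and high lines, with 1006 to 2105 in line 13d and 1221 to 2368 in 10d against 3282 to 5695 in 9v and 3574 to 6950 in 14d. The log2 difference of bcat* over WT lines was 0.14 ± 0.76 (SE), with a 95% interval from -2.03 to 2.32. Between the male lines, 10d was lower than 9v by a log2 difference of -1.27, and between the female lines 14d was higher than 13d by 1.56. The 2 low lines are those that the sample labels give as bcat*, and the 2 high lines are those that the labels give as WT.

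Mitf and the pigment genes were bright on both sides. Mitf had intensities of 29002 in line 9v, 25220 in 13d, 25382 in 10d and 23118 in 14d, a log2 difference of -0.16 ± 0.24 (SE), and its 2 detected probe sets did not share a sign. Dct, which makes an enzyme of melanin synthesis, ranged from 53134 to 57474 over the 4 lines. Of 19 detected genes of pigment synthesis and melanosomes, 15 overlapped between the sides. Without overlap, 3 were higher and 1 was lower in the bcat* lines, beside 16.1% and 14.1% of all genes tested.

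**Figure D1:**
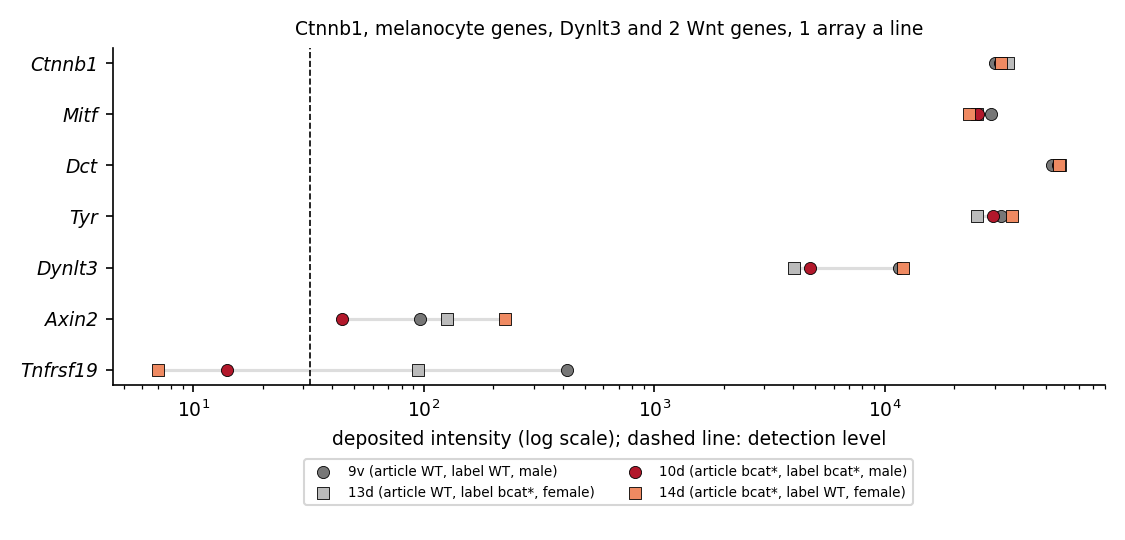
Deposited intensity (log axis) of 7 genes in each line, with 1 point per array and no error bar because each line has 1 array. Ctnnb1, Mitf, Dct and Tyr lie close together in all lines, Dynlt3 is at 4055 and 4764 in lines 13d and 10d and at 11518 and 11963 in lines 9v and 14d, and Tnfrsf19 is below the dashed detection level of 32 in lines 10d and 14d.

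Across all genes, no difference between the bcat* and the WT lines passed the test. Of 18193 genes measured, 9415 were detected on at least 1 array and were tested with limma on log2 intensities raised to the detection level. At an adjusted p below 0.05, 0 genes were called (0% of those tested). The smallest adjusted p was 0.545, shared by 4 genes, and 351 genes had an unadjusted p below 0.05, of which 131 were higher and 220 lower in the bcat* lines. With sex as a block, 0 genes were called, the smallest adjusted p was 1 and 220 genes had an unadjusted p below 0.05. An exact permutation test over 2 against 2 arrays could not go below a two-sided p of 0.33.

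Since the test called no gene, the genes whose 2 arrays on each side agreed were described by the gap between the sides. A gene was counted as separated when both lines of a side had at least 2 times the intensity of both lines of the other side. In this sense 38 genes (0.404% of those tested) were higher and 69 genes (0.733%) were lower in lines 10d and 14d. Without a minimum fold, 1518 genes (16.1%) did not overlap and were higher in the bcat* lines and 1323 (14.1%) were lower. This split depended on the scaling, with 2079 higher and 950 lower after each array was centred on its median. Grouped by the label genotypes instead, more genes did not overlap, with 1737 higher and 1834 lower in the lines labelled bcat*. Of the 107 separated genes, 48 had more than 1 detected probe set, and in 46 of these all detected probe sets shared a sign. All 107 are counts over these lines, and none of them passed the test across genes. At the edge of the rule, Snord104 had a gap of exactly 2 times (162 and 111 in lines 9v and 13d, 324 and 347 in lines 10d and 14d), while Flna, with 5625 and 4093 against 2008 and 2055, lay just outside it.

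Of the genes that differed widely in both sexes, more did so in opposite directions than in the same direction. Between the male lines, 1631 genes had 2-fold or wider differences, and between the female lines 1813 genes. These pairs share no array. In 177 genes both differed by at least 2-fold in the same direction, 64 of them higher and 113 lower in the bcat* line, whereas in 439 genes they did so in opposite directions. Across the 9415 genes, which are not independent replicates and were measured on the same 4 arrays, the log2 differences of the pairs had a Pearson r of -0.191 and a Spearman rho of -0.158. With the genotypes of the labels, the female difference and with it the sign of r would be turned.

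**Figure D2:**
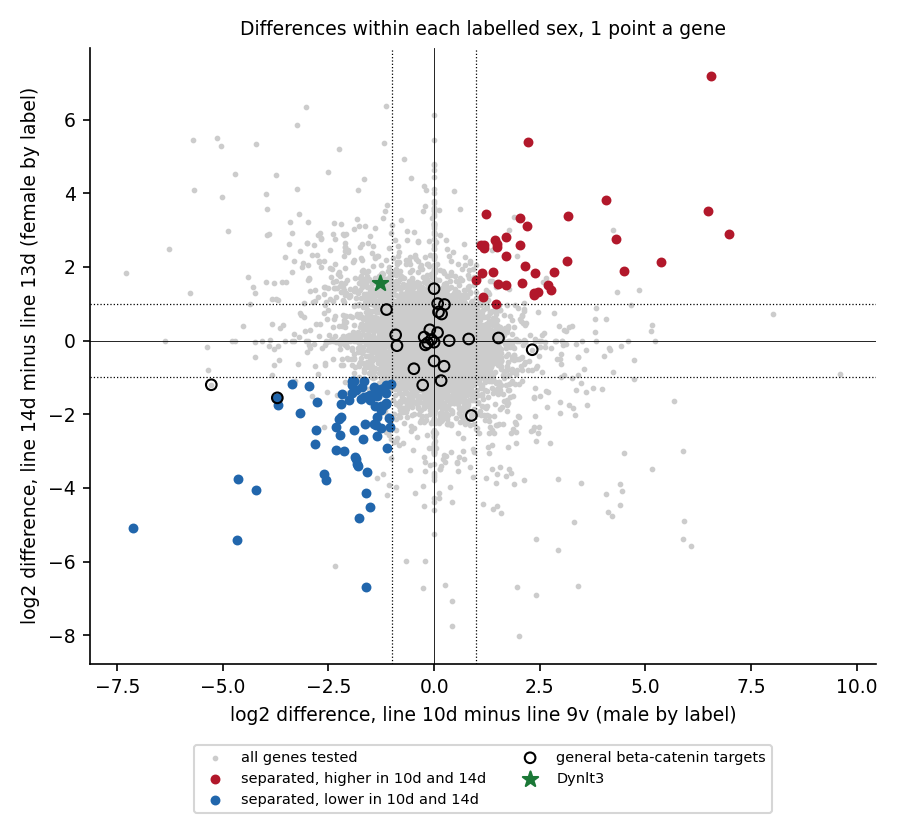
Log2 difference of line 10d over 9v (horizontal axis, male lines) and of line 14d over 13d (vertical axis, female lines), 1 point per gene tested, with values raised to the detection level and dotted lines at 2-fold. Separated genes (38 red, 69 blue) lie in the corners where both pairs agree by construction, general β-catenin targets (open circles) lie mostly near the centre, and Dynlt3 (star) lies in a corner where the pairs disagree, at -1.27 and 1.56.

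A single known general target of β-catenin was among the separated genes. Of 46 measured general targets, 27 were detected, 0 were separated upward and 1, Tnfrsf19, was separated downward, beside 0.404% and 0.733% of all genes tested, so that with 27 genes a count of 0 or 1 does not stand apart from the background. Without a minimum fold, 5 were higher in both bcat* lines than in both WT lines, 4 were lower and 18 overlapped, close to the 16.1% higher and 14.1% lower of all genes. The median log2 difference of the 27 detected targets was -0.07, beside 0.01 over all genes tested, and was 0.01 without line 10d.

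The feedback regulators of the pathway differed from line to line. Axin2, a scaffold of the complex that degrades β-catenin, had intensities of 96 in line 9v, 126 in 13d, 44 in 10d and 226 in 14d. The bcat* lines thus held both the lowest and the highest value. Lef1, a partner of β-catenin in the nucleus, was above the detection level in line 14d alone, at 85, with 8 in 9v, 20 in 13d and 12 in 10d. Nkd1, an inhibitor that acts on Dishevelled, was high in line 10d alone, at 160, with 22 in 9v, 38 in 13d and 10 in 14d. Its relative Nkd2 had 147 in 9v and 296 in 13d against 423 in 10d and 311 in 14d, without overlap but with 13d and 14d close together. Znrf3, a ubiquitin ligase that removes Wnt receptors, was nearly level, from 89 to 94 over the 4 lines.

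Other targets of the pathway were not separated. Ccnd1, which drives entry into S phase, had 14265 in line 9v, 13804 in 13d, 7593 in 10d and 15379 in 14d. Myc had 615 in 9v and 807 in 13d against 1085 in 10d and 832 in 14d, without overlap but with 13d and 14d close together. Id2, an inhibitor of basic helix-loop-helix factors, was likewise higher in the bcat* lines without overlap, with 32357 in 9v and 24232 in 13d against 34804 in 10d and 41533 in 14d. Gja1, the gene of connexin 43, showed the widest spread of the list, with 1702 in 9v, 7630 in 13d, 44 in 10d and 3323 in 14d, and overlapped.

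Tnfrsf19, a receptor of the tumour necrosis factor family that is commonly listed as a Wnt target, was lower in both bcat* lines. It had intensities of 419 in line 9v and 94 in 13d and lay under the detection level in 10d (14) and 14d (7). The WT line nearer to them was at least 2.94-fold higher. Among its 3 probe sets this was the only detected one, and the gene no longer counted as separated with a detection level of 64 or with the mean of its probe sets. Its log2 difference was -2.63 ± 0.82 (SE), with an adjusted p of 0.959 in limma, and was -0.11 with the mean of its probe sets.

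The targets described in melanocytes did not separate the lines either. Of 8 such genes, 6 were detected and 0 were separated, beside 0.404% upward and 0.733% downward of all genes tested. Of the 6, 1 was lower without overlap and 5 overlapped. The median log2 difference was -0.05, which was 0.05 after median centring, 0.02 without line 13d and 0.03 without line 10d. Cdkn2a, which encodes cell cycle inhibitors and is repressed by β-catenin in melanocytes, had 184 in line 9v, 39 in 13d, 32 in 10d and 38 in 14d, so that line 9v stood above the other 3. Tyr had 31903 in 9v, 25134 in 13d, 29577 in 10d and 35711 in 14d. Pou3f2 was under the detection level in all lines, at 7 or 8. Of 34 detected components of Wnt signalling, 0 were separated, 5 were higher and 5 lower without overlap, close to the 16.1% and 14.1% of all genes, and the median was -0.08.

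**Figure D3:**
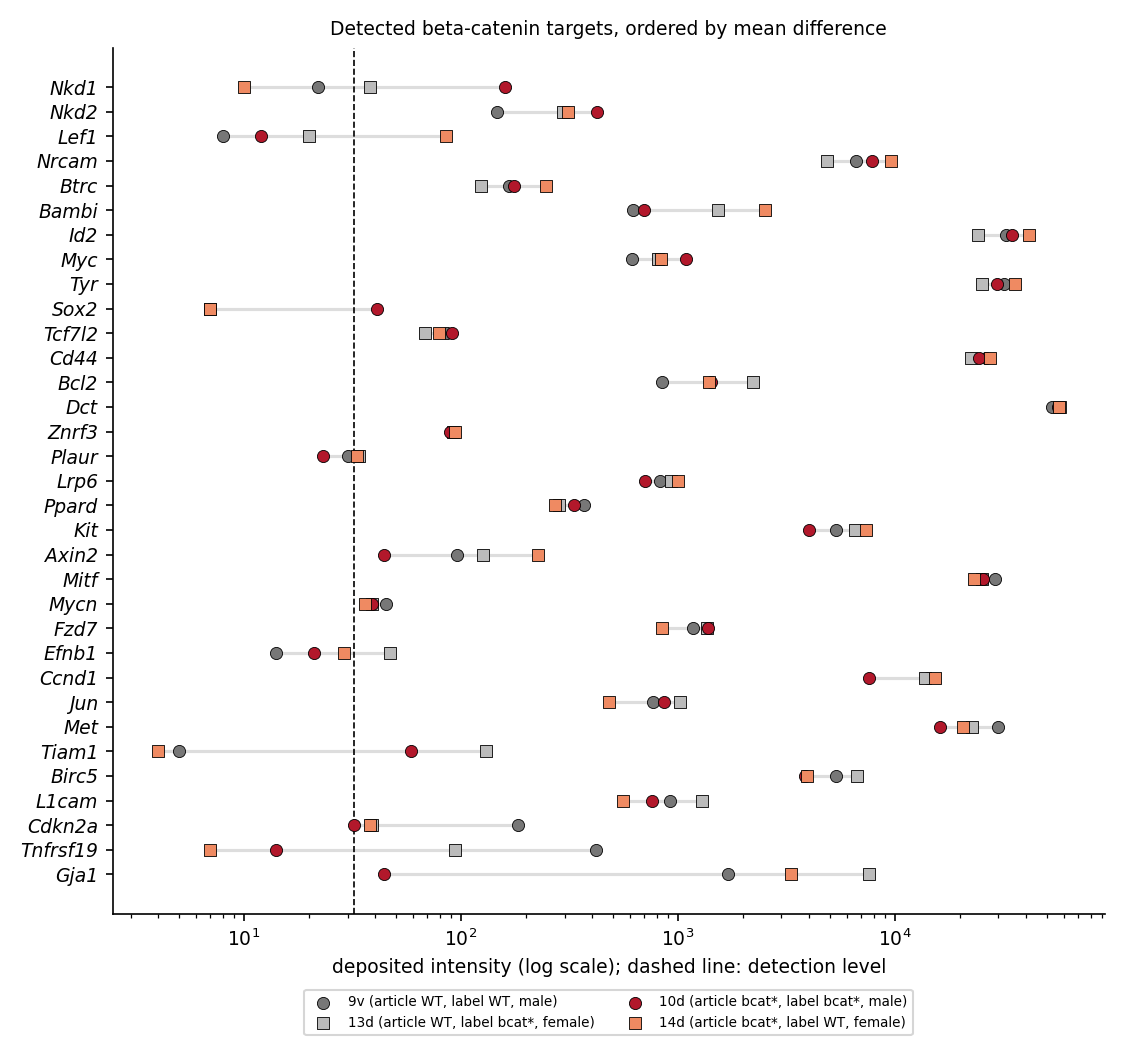
Deposited intensity (log axis) of each detected general or melanocyte target of β-catenin in the 4 lines, ordered by the mean difference between bcat* (red and orange) and WT (dark and light grey) lines. Only for Tnfrsf19 do both bcat* lines lie at least 2-fold from both WT lines, and for most targets the colours overlap.

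Among genes higher in the bcat* lines, Armcx2, an X-linked gene of the armadillo repeat family, had the widest measured gap. It had intensities of 5 in line 9v, 45 in 13d, 3026 in 10d and 6587 in 14d, so that 10d was 67.2-fold above 13d, and its other detected probe set gave 8 and 11 against 822 and 2456. Armcx2 and Ggt7, a member of the γ-glutamyltransferase family with 34 in 9v, 21 in 13d, 308 in 10d and 335 in 14d, fell outside the rule for named genes and were chosen after their values were seen. Both were among the 4 genes that shared the smallest adjusted p of 0.545. Fbln5, an extracellular matrix protein of elastic fibres, had 4 in 9v, 548 in 13d, 4070 in 10d and 4039 in 14d. Here the WT lines differed from each other far more than the bcat* lines did. The log2 difference of Fbln5, 4.94, was 1.72 with the mean of its 2 probe sets, of which 1 was detected.

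Of 14 genes that were higher in the bcat* lines and detected on all arrays, 8 are named. They have the widest gaps between the nearest lines of the sides among genes with a proper symbol and probe sets of 1 sign. Neat1, a long noncoding RNA that scaffolds nuclear paraspeckles, had intensities of 1657 in 9v, 914 in 13d, 4664 in 10d and 5622 in 14d, a log2 difference of 2.06 ± 0.39 (SE). Nceh1, a hydrolase of cholesteryl esters, had 1086 in 9v, 1109 in 13d, 3101 in 10d and 3205 in 14d, and the lines of each side were nearly equal. Osmr, the receptor of oncostatin M, had 189 in 9v, 220 in 13d, 1287 in 10d and 571 in 14d. Trim21, an antibody receptor of the cytosol that interferon can induce, had 99 in 9v, 165 in 13d, 514 in 10d and 401 in 14d. The others were Tmem62, Mid2, Fbxl16 and St7l, with log2 differences of 2.11, 1.81, 2.01 and 1.80. When the probe sets of a gene were averaged, the log2 difference was 1.09 for Neat1, 0.53 for Osmr and 1.16 for St7l. These averages take in probe sets that were not detected on any array. Detected were 1 of 2 probe sets for Neat1 and 2 of 3 each for Osmr and St7l.

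A further 9 genes that were higher in the bcat* lines lay under the detection level in both WT lines. Adh7, an alcohol and retinol dehydrogenase, had 10 in both WT lines, 150 in 10d and 1357 in 14d, at least 4.69-fold higher by the nearest line. Sod3, the extracellular superoxide dismutase, had 6 in 9v, 8 in 13d, 282 in 10d and 142 in 14d, at least 4.44-fold higher. Eno2, the neuronal form of enolase, had 6 in 9v, 28 in 13d, 130 in 10d and 319 in 14d. Tmem47, Slc22a17 and Pag1 were at least 3.25-fold, 2.84-fold and 2.63-fold higher in the same way.

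Among genes lower in the bcat* lines, Slc38a1 and Efemp1 went from bright to under the detection level. Slc38a1, a transporter of glutamine and other neutral amino acids, had intensities of 4478 in line 9v and 1097 in 13d against 19 in 10d and 7 in 14d, at least 34.3-fold lower by the nearest line, and its other probe set gave 1360 and 363 against 9 and 9. Efemp1, a fibulin of the extracellular matrix, had 809 in 9v and 1361 in 13d against 6 in 10d and 7 in 14d, at least 25.3-fold lower, with a log2 difference of -5.04 ± 0.35 (SE) and an adjusted p of 0.545 in limma. It was read from a single probe set, and both bcat* values were raised to 32, so that their spread was 0 in this fit. Pir, a redox-sensitive nuclear protein, had 195 in 9v and 398 in 13d against 7 in 10d and 17 in 14d. Adamts20, a secreted metalloprotease whose mutation gives white belted mice, had 159 in 9v and 253 in 13d against 14 in 10d and 5 in 14d. Akr1b8, an aldo-keto reductase, and Acyp2, an acylphosphatase, were at least 3.41-fold and 3.19-fold lower.

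Of 44 genes that were lower and detected on all arrays, Nkain1, which encodes a membrane protein that binds the sodium pump, had the widest gap. It had 1106 in line 9v, 2522 in 13d, 44 in 10d and 187 in 14d. Its log2 difference of -4.20 was -0.87 with the mean of its 5 probe sets, of which 3 were detected. Serpinf1, a secreted inhibitor of blood vessel growth, had 1017 in 9v, 1203 in 13d, 221 in 10d and 287 in 14d, a log2 difference of -2.13 ± 0.27 (SE). Neurl1b, a ubiquitin ligase that acts on Notch ligands, had 434 in 9v, 366 in 13d, 94 in 10d and 112 in 14d. Magix, the tetraspanin gene Tspan13, Kank4 and Depdc1b had log2 differences of -2.40, -2.87, -2.57 and -2.16.

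**Figure D4:**
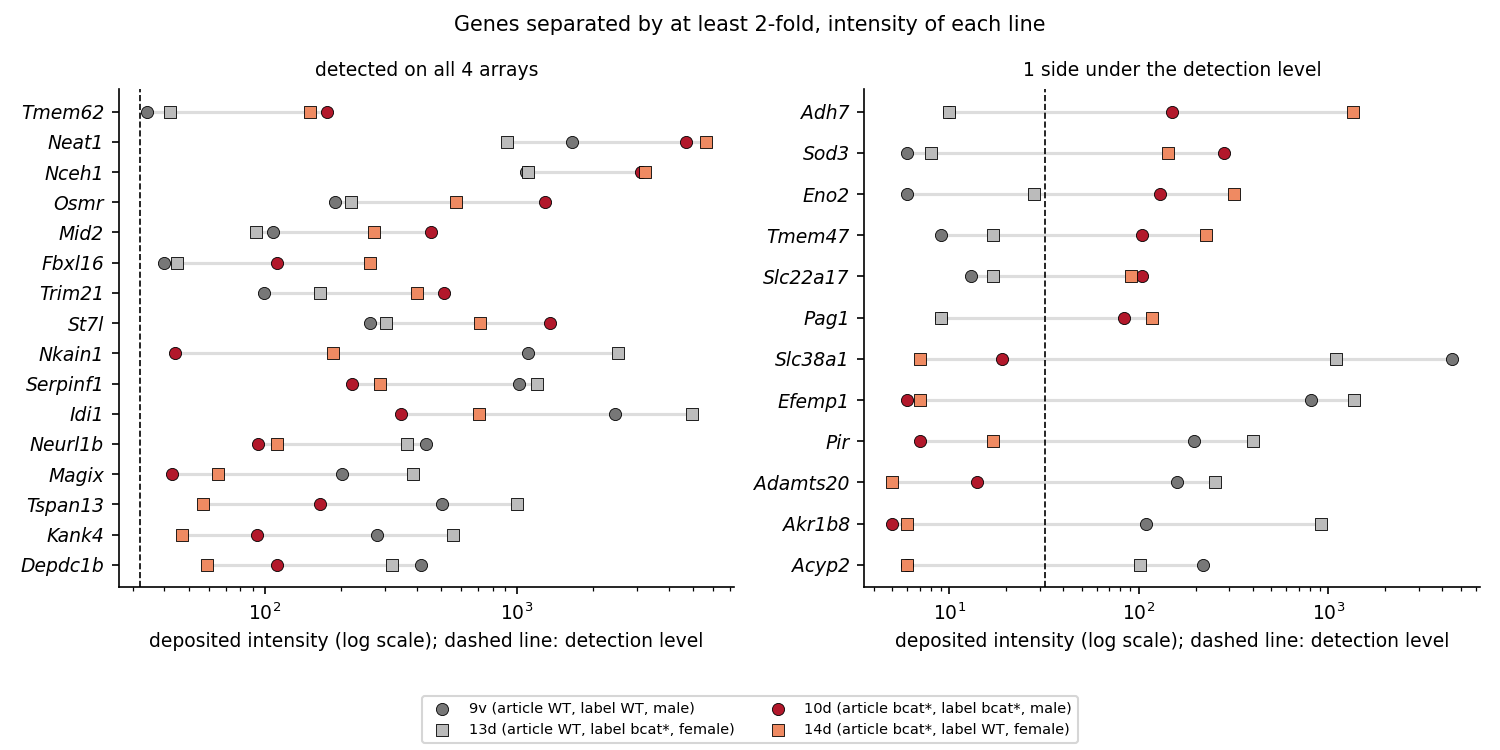
Deposited intensity (log axis) in each line for separated genes named by rule, 1 point per array. On the left are genes detected on all 4 arrays and on the right genes with both lines of a side under the dashed detection level of 32, where the gap is a lower bound. In every row both bcat* lines (red, orange) lie on the same side of both WT lines (greys), as the rule requires.

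Genes of sterol synthesis were lower in the bcat* lines. This group was noticed in the values and its list was chosen afterwards. Its counts and its medians, also those within a sex or without a line, are therefore a description and not a check. Of 17 measured members, all were detected, 5 were separated downward and 0 upward. A further 8 were lower without overlap, 1 was higher and 3 overlapped, so that 13 of 17 were lower in both bcat* lines than in both WT lines, beside 14.1% of all genes tested. The median log2 difference was -1.42, and it was -1.60 between the male lines and -1.16 between the female lines. It stayed between -1.89 and -0.90 when each line was left out in turn.

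The lower members lay along the whole pathway. Hmgcs1, which makes the precursor of mevalonate, had intensities of 7247 in line 9v, 11108 in 13d, 1525 in 10d and 2553 in 14d, a log2 difference of -2.18 ± 0.42 (SE). Of its 5 detected probe sets, 4 were far above the detection level and lower in both bcat* lines, and the fifth was detected in line 13d alone, at 133. Idi1, an isomerase of the isoprenoid steps, had 2450 in 9v, 4934 in 13d, 346 in 10d and 708 in 14d. Mvd, the decarboxylase before it, had 115 in 9v, 497 in 13d, 33 in 10d and 47 in 14d, close to the detection level. Of the later steps, Hsd17b7 had 691 in 9v, 1067 in 13d, 191 in 10d and 115 in 14d, and Nsdhl had 2793 in 9v, 3115 in 13d, 777 in 10d and 1230 in 14d. Another probe set of Hsd17b7 was dimmer, with 79 in 9v, 148 in 13d, 32 in 10d and 21 in 14d. A further one reached 32 in line 13d alone. In each of these genes line 13d was the highest. Cyp51, Lss and Dhcr7 did not overlap but had nearest lines less than 2-fold apart, with log2 differences of -1.42, -1.54 and -2.19. Ebp, Pmvk and Sc5d overlapped.

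Around the pathway, Srebf2, the transcription factor that induces these genes when sterols are low, had 471 in line 9v, 734 in 13d, 115 in 10d and 275 in 14d. It did not overlap but was not separated. Of 17 measured factors of this control and of fatty acid synthesis, also listed after the values were seen, 4 were lower without overlap and 0 higher. Over all genes tested the shares were 14.1% and 16.1%. Of the 4, 2 were separated downward, beside 0.733% of all genes tested. These were Fads2, a fatty acid desaturase, with 103 in 9v, 257 in 13d, 25 in 10d and 40 in 14d, and Lrp8, a lipoprotein receptor, with 83 in 9v, 158 in 13d, 32 in 10d and 22 in 14d. Of the rest, 13 overlapped, among them Srebf1, Fasn and Insig1. Insig1, which retains the factor in the endoplasmic reticulum, had 571 in line 10d and between 1657 and 1770 in the other lines.

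Genes of the cell cycle were also lower in the bcat* lines, by a smaller amount. Of 32 detected members of the list, 21 were lower without overlap and 0 higher, beside 14.1% and 16.1% of all genes, and 2 were separated. After median centring 18 were lower and 1 was separated, and 1 was separated when probe sets of a gene were averaged. The median log2 difference was -0.67, -0.67 between the male and -0.79 between the female lines, and it ranged from -0.90 to -0.45 when each line was left out. Foxm1, a transcription factor of late cell cycle genes, had intensities of 831 in 9v, 862 in 13d, 292 in 10d and 309 in 14d. Its log2 difference of -1.49 ± 0.22 (SE) was -0.62 with the mean of its 4 probe sets, of which 2 were detected. Mad2l1, a protein of the spindle checkpoint, had 6105 in 9v, 6311 in 13d, 2690 in 10d and 2606 in 14d. In both genes the lines of each side were close together. Mki67, the proliferation marker, had 6057 in 9v, 8293 in 13d, 3782 in 10d and 3565 in 14d, without overlap but less than 2-fold apart. The DNA replication genes Pcna, Mcm5 and Cdc6 overlapped. The culture density of each array is not given beyond the common limit of 80% confluency, and its part in these values was not tested.

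**Figure D5:**
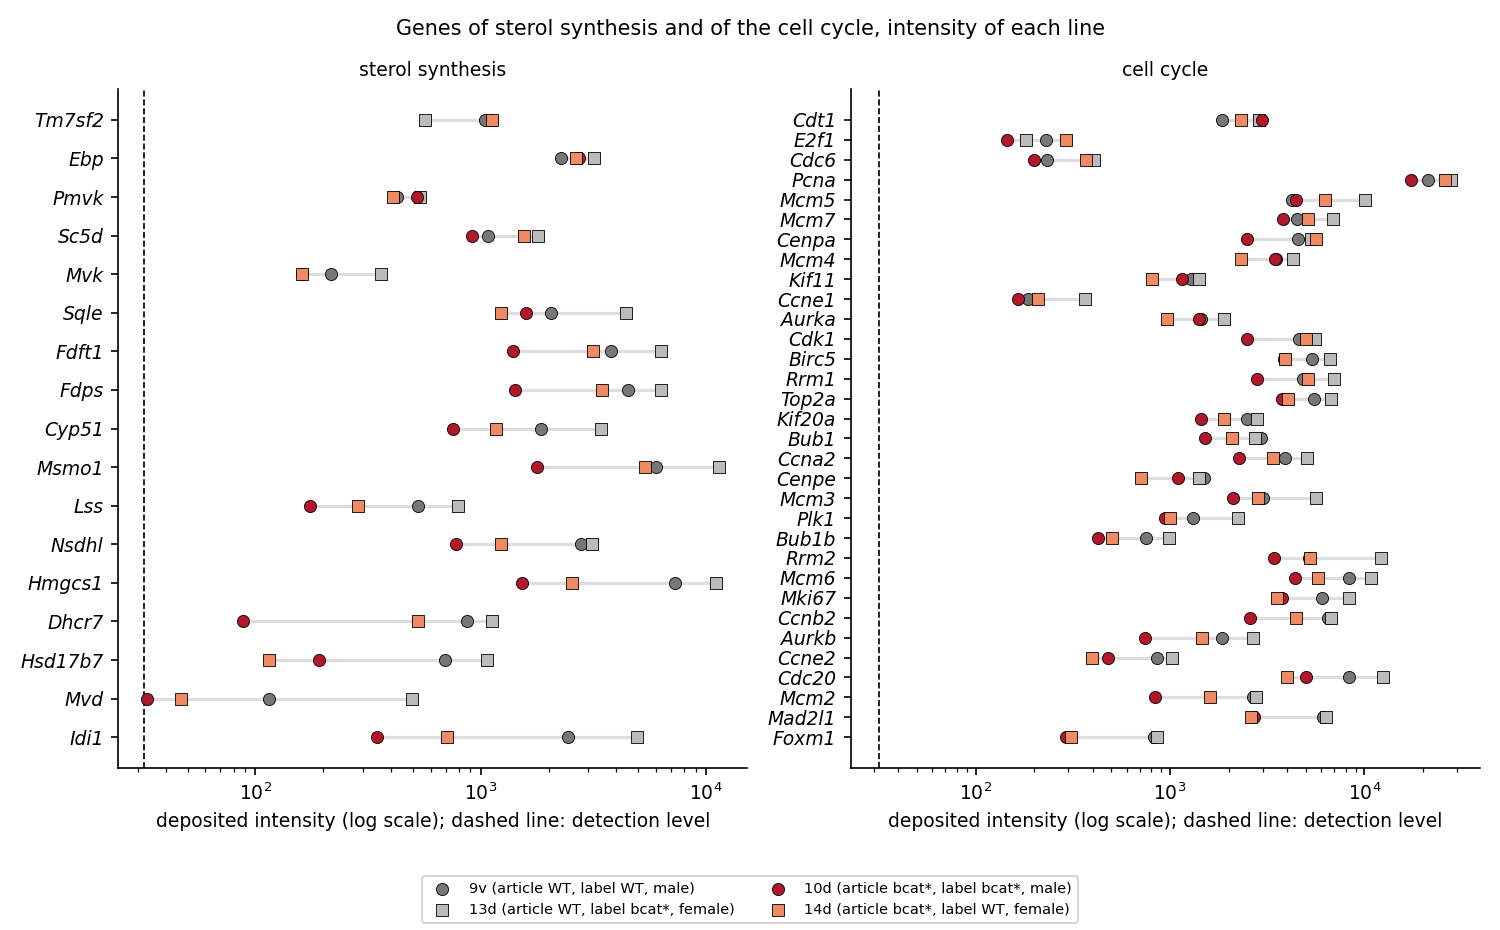
Deposited intensity (log axis) of the detected genes of sterol synthesis (left) and of the cell cycle (right) in each line, ordered by the mean difference, with 1 point per array and the detection level dashed. At the lower end of both panels the bcat* lines (red, orange) lie to the left of the WT lines (greys): 13 of 17 and 21 of 32 genes are lower in both bcat* lines.

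The list of genes induced by interferon was higher in line 10d than in 9v by its median, and not in line 14d than in 13d. Of 18 detected genes induced by interferon, 0 were separated, 2 were higher without overlap, beside 16.1% of all genes, and 16 overlapped. Usp18, which removes ISG15 from proteins, had an intensity of 769 in line 10d, with 4 in 9v, 32 in 13d and 5 in 14d. Oas1a, an antiviral synthetase, had 568 in 10d, with 10 in 9v, 37 in 13d and 10 in 14d. The median log2 difference of the list was 2.45 between the male lines and -0.10 between the female lines, and its median over both sides was 0.66. It was -0.38 without that line. Ifit3 was higher in both bcat* lines, with 322 in 9v, 434 in 13d, 2286 in 10d and 724 in 14d.

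Of 29 detected lysosomal genes, 18 overlapped between the sides, 11 were higher in the bcat* lines without overlap and 0 were lower, beside 16.1% and 14.1% of all genes, and 0 were separated, with a median log2 difference of 0.17 and 0 members at an unadjusted p below 0.05. The median was 0.32 without line 14d. After median centring 15 were higher. Npc1, a cholesterol exporter of the lysosome, had 917 in line 9v, 853 in 13d, 1217 in 10d and 1284 in 14d. Gla, an α-galactosidase, was far higher in 10d alone, at 3034, with 705 in 9v, 641 in 13d and 886 in 14d. When a line was left out, up to 4 members were lower without overlap.

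None of the 63 detected genes of the list of lysosome-related organelles was separated. This list follows that of the study but has 70 entries, more than the study names, so its counts are not exactly those of the study's list. Of the 63 genes, 10 were higher and 7 lower without overlap, 46 overlapped, beside 16.1% and 14.1% of all genes. The median log2 difference was 0.03, and was -0.03 without line 13d. The study drew its own expression comparison from its list on these arrays, so that the direction here is not independent evidence. After median centring, 19 were higher and 5 lower and the median was 0.13. Myo5a, the motor that ties melanosomes to actin, had 4026 in 9v, 2042 in 13d, 6157 in 10d and 4668 in 14d. Rab31, a small GTPase, was low in line 10d alone, at 102, with 780 in 9v, 662 in 13d and 813 in 14d. Of 9 detected chains of cytoplasmic dynein, 1 was higher and 2 were lower without overlap, 6 overlapped, and their median was 0.07. Of these chains 0 were separated, beside 0.404% upward and 0.733% downward of all genes tested.

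The remaining lists, of melanocyte transcription factors, cell cycle inhibitors, organelle acidification, cadherins, adhesion and matrix, growth receptors, Hox genes, imprinted genes, Schwann cell genes, Notch and the TGF-β pathway, held 1 separated gene in all, Fbln5. They had from 5 detected members (Hox genes) to 30 (adhesion and matrix). Over all genes tested, 0.404% were separated upward and 0.733% downward, so that this count does not stand apart from the background. The median log2 differences of these lists ranged from -0.25 for growth receptors to 0.29 for the 7 detected Notch genes.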

How the data were processed

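Total RNA of 4 melanocyte lines was measured on Affymetrix mouse arrays, 1 array per line. The authors deposited intensity values made with GCRMA, which corrects background by probe sequence, normalizes between arrays and summarizes probe sets. The scale was not stated and was read as linear from the values (from 2 to 84904). RNA integrity numbers were 9.7 to 9.9, and 35.8% to 36.1% of probe sets reached 32 on each array. Array number limits the precision.

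Of 45037 probe sets, 34945 had 1 gene symbol, 932 had several and 9160 were not listed. For each gene the probe set brightest on average (mean log2) was used. Values under 32 were raised to 32, and genes reaching 32 on at least 1 array were tested with limma 3.58.1 (R 4.3.3; lmFit, eBayes, Benjamini-Hochberg), grouped by the article's genotypes. P-values measure the spread between lines after this raising. Where both lines of a side are under 32, the spread of that side is set to 0. The SE and p then rest on the other side and on the spread shared across genes, and they understate the uncertainty. The test was checked on simulated data with wide known differences and a spread far below that of genes such as Dynlt3. That check does not show its power on these lines. Folds against lines under 32 are lower bounds.

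Named genes were Ctnnb1, Dynlt3, Mitf, separated β-catenin targets, the 8 separated genes per direction with the widest gap among genes detected on 4 arrays, 6 per direction with 1 side under 32, and up to 2 per list, all with a proper symbol and probe sets of 1 sign. Exceptions, including Armcx2, Ggt7 and unseparated list members, were chosen after their values were seen. The members and lists were chosen with earlier results of these data known. Promoters are from RefSeq GRCm38.p6. Alternatives covered probe set choice, detection level, normalization, sex as a block, each line left out, the fold threshold and the label genotypes.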

Additional observations from a re-analysis of the deposited data

Results flagged for a closer look

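Dynlt3, the dynein light chain, had within-sex differences of opposite direction. Line 10d lay below line 9v by a log2 difference of -1.27 and line 14d lay above line 13d by 1.56, so that the 2 differences were 2.83 apart on the log2 scale. Each difference rests on 1 array per line, and the difference between them was not tested. All 4 probe sets of the gene gave this pattern. With the genotypes of the sample labels, both pairs have the lower value in the bcat* line.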

How the results depend on the processing

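The number of genes called by limma was 0 under every alternative run, with 351 genes at an unadjusted p below 0.05 under the article's genotypes, 220 with sex as a block and 754 under the label genotypes, where the smallest adjusted p was 0.0721. The 38 genes separated upward became 115 at 1.5-fold, 16 at 3-fold and 96 with the label genotypes, and 154 to 307 when a line was left out. The 69 genes separated downward became 43 with the mean of all probe sets, 205 at 1.5-fold, 23 at 3-fold and 186 with the label genotypes, and 270 to 487 when a line was left out. Counts rise without a line because fewer arrays have to be separated, and the remaining line is assumed to vary like the others. Of the 107 separated genes, 93 had a value when probe sets were averaged and 65 of these remained. After median centring 94 remained, 101 after quantile normalization, 103 after cyclic loess and 81 with a detection level of 64. With the label genotypes 0 could remain by construction, because swapping lines 13d and 14d puts a high and a low line on each side. β-catenin targets separated downward were 0 instead of 1 with the mean of all probe sets, with a level of 64 and at 3-fold. They were also 0 with the label genotypes, where Tnfrsf19 could not stay separated, by the same construction. Without a line they were 1 to 3, and those separated upward were 0 to 1. Sterol synthesis genes separated downward were 8 instead of 5 at 1.5-fold, 2 at 3-fold and 5 to 12 without a line. They were 4 with the mean of all probe sets, without probe sets of the types _x_at and _s_at, and with a level of 64. The log2 difference of Dynlt3 was -1.42 with the label genotypes and ranged from -0.61 to 0.90 when a line was left out, and the cause was not tested. Of the 34 other named genes, Ctnnb1 changed sign, from -0.02 to 0.08 after median centring and 0.07 without line 13d, and the others kept their sign. In all, 24 moved by more than 1 SD in at least 1 alternative, where the label genotypes were not applied to them. The labels give no replicate numbers that the lines share, and pairing the lines by sex was run as the fit with sex as a block, which left 1 residual degree of freedom and called 0 genes. The number of arrays limits every comparison.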
